A study of Mus musculus with 2 samples.

Results

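The subunits of oxidative phosphorylation, together with the assembly factors that share their gene names, were compared between group D and group E. Members are the rows whose symbol begins with Nduf, Uqcr or Atp5, or with Cox and a digit, or is Sdha, Sdhb, Sdhc or Sdhd. The rule took 101 of 23358 genes listed, of which 44 were counted with complex I, 4 with complex II, 8 with complex III, 29 with complex IV and 16 with complex V. The symbol alone chose them, and no measured value entered the choice. Ndufa4 and its paralog Ndufa4l2 were counted with complex IV, to which the Ndufa4 protein belongs, and Atp5sl, which is named after an ATP synthase factor but is linked to complex I, was counted there.

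RNA was sequenced from the ileum, where the small intestine ends, of BALB/c mice. Both groups received physiological saline into the abdominal cavity and castor oil by mouth, an oil that causes diarrhea within hours. Group D was then given physiological saline by mouth and group E was given ellagic acid (EA), a plant polyphenol, and this was repeated daily until the ileums were collected. The comparison therefore asks what EA changes in ileums that have all been exposed to castor oil. A group without castor oil was not analysed here. The study sequenced 2 libraries per group, but the deposited table gives 1 FPKM per gene and group (fragments counted relative to transcript length and to the number of mapped fragments). There are thus no replicates in these values, no SD and no test, and a difference between the groups cannot be set against the spread between mice.

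Oxidative phosphorylation is the last stage of respiration in the inner mitochondrial membrane. Complex I takes electrons from NADH and complex II from succinate, complex III passes them through cytochrome c to complex IV, which reduces oxygen, and complex V uses the proton gradient to make ATP. Most subunits are encoded in the nucleus, a few core subunits of complexes I, III, IV and V by mitochondrial DNA. Absorptive cells of the intestine depend on this ATP to drive the sodium pump and so the uptake of nutrients and water. The mitochondrially encoded subunits were not analysed here.

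The tissue of both groups carried the transcripts of ileal enterocytes. All 12 markers of enterocytes and ileum passed the filter used for every gene below, a mean over both groups of at least 1 FPKM with both values above 0, and their levels summed to 18717 FPKM in group D against 16020 FPKM in group E. Of these markers, 4 were higher in group E and 8 lower. Fabp6, the ileal bile acid binding protein and the most abundant of them, was at 5698 FPKM and 3846 FPKM. Vil1 was at 980 FPKM and 950 FPKM, and Lct at 3.59 FPKM and 18.4 FPKM. The smooth muscle list summed to 913 FPKM in group D against 1043 FPKM in group E, with 7 of its 8 genes higher in group E. In bulk tissue, fewer cells of a type and less RNA per cell cannot be told apart. Changes below are log2 of the FPKM in group E over that in group D, without a pseudocount. The median of all 12694 genes that passed was 0.01, so the groups were centred alike.

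Oxidative phosphorylation genes as a whole lay at nearly the same level in both groups. Of the 101 members, 96 passed the filter, 50 of them higher in group E and 46 lower, with a median log2 change of 0.03. The middle part of the members, from the lower to the upper quartile, spanned -0.20 to 0.22, and that of all genes spanned -0.19 to 0.21. Summed over all members, the level was 13789 FPKM in group D against 14747 FPKM in group E, a ratio of 1.07. The sum over all genes listed was 459683 FPKM against 589890 FPKM, a ratio of 1.28, so that the members made up a smaller part of the total in group E. The typical gene did not follow this sum. The median log2 change over all genes that passed was 0.01, not above that of the members. These are abundant transcripts: 82 members had at least 10 FPKM in both groups and 38 had at least 100 FPKM. The level of a member in group D also gave its level in group E, with a Pearson r of 0.97 for log2 FPKM across the 96 members and 0.96 across the 12598 other genes. This is a description across genes of the same 2 columns of values, and genes are not independent replicates.

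**Figure D1:**
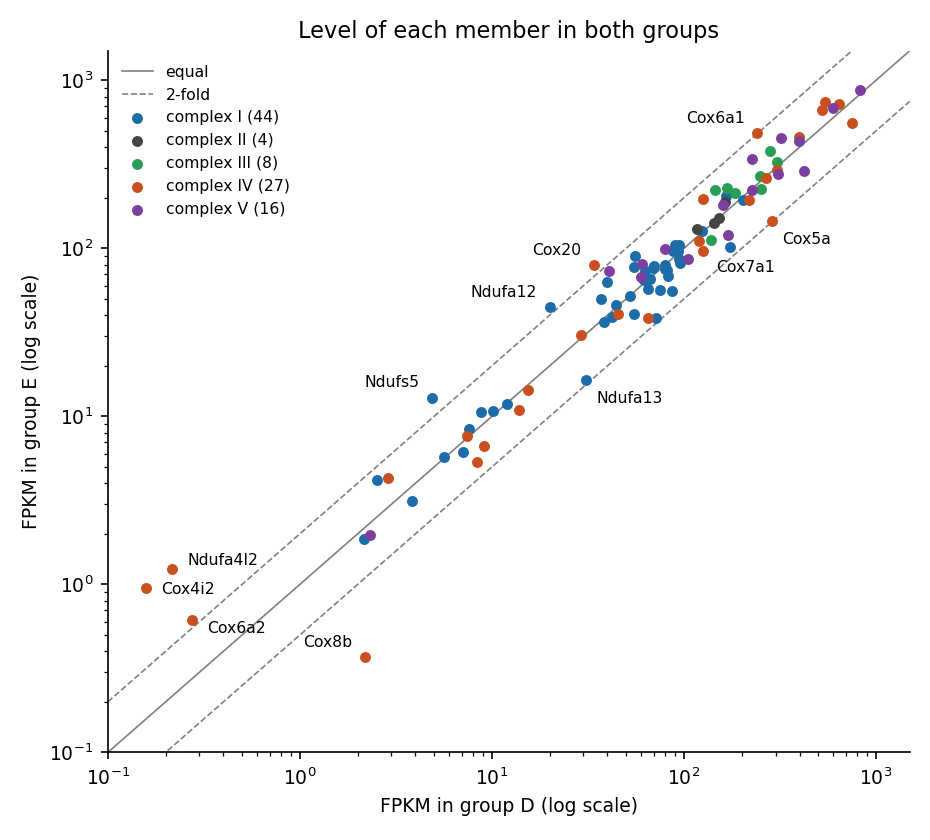
Level of each member in group D (x axis, FPKM, log scale) and group E (y axis, FPKM, log scale), 1 point per gene, coloured by complex, with the line of equal level (solid) and the lines of a 2-fold difference (dashed). Most points follow the solid line. Ndufs5, Ndufa12, Cox20 and Cox6a1 lie on or above the upper dashed line, while Cox8b lies under the lower one. Cox4i2, Ndufa4l2 and Cox6a2 at the lower left did not pass the filter, and Cox7b2 and Cox8c, listed at 0 in both groups, are not drawn.

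The complexes differed in where their members lay. The median log2 change was 0.01 in complex I, 0.07 in complex II, 0.17 in complex III, -0.08 in complex IV and 0.16 in complex V. Complex III had 6 of its 8 members higher in group E, and its summed level was 1721 FPKM in group D against 1982 FPKM in group E. Complex V had 10 of 16 higher, with sums of 3997 FPKM and 4283 FPKM. In complex I the sides were even, 22 of 44 higher and 22 lower, with sums of 2709 FPKM and 2694 FPKM. The sum of complex IV was 4787 FPKM against 5177 FPKM, higher in group E although its median was below 0. Complex IV split by role. Its 11 widely expressed structural subunits had a median of 0.16 with 6 higher in group E, and its 9 assembly factors a median of -0.16 with 6 lower. Whether these medians differ between complexes was not tested.

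**Figure D2:**
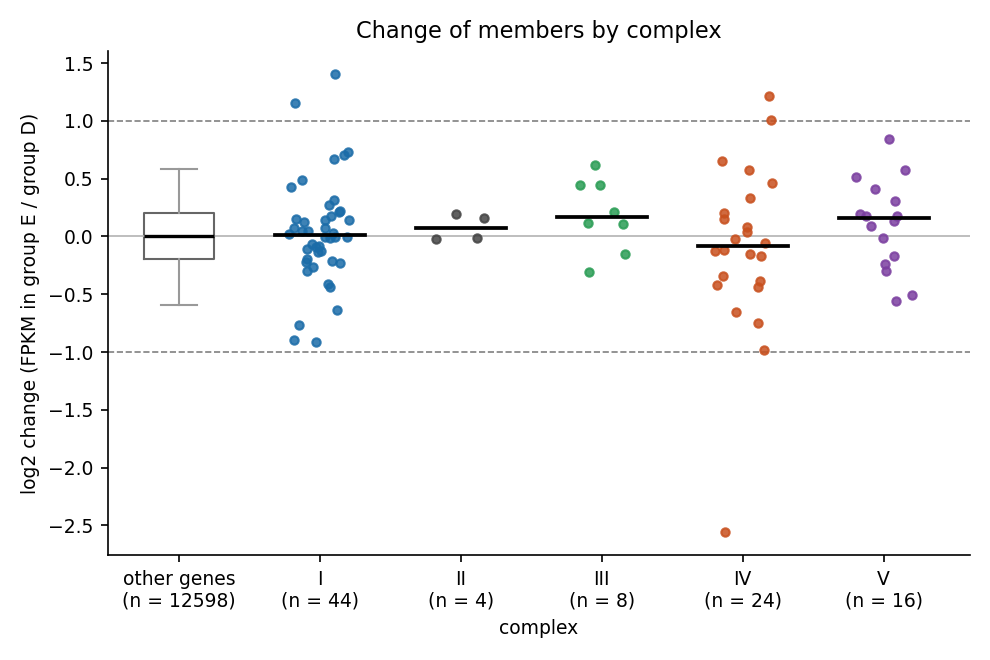
log2 change (FPKM in group E over group D) of the members that passed the filter, 1 point per gene, by complex, with the median of each complex as a bar and n under each name. The box at the left gives the quartiles of the 12598 other genes and its line their median. The whiskers of the box reach past the quartiles but do not cover all of these genes, and the dashed lines mark 2-fold. The medians lie between -0.08 and 0.17, the points of complex IV are spread the most, and Cox8b stands alone at -2.56.

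With 1 value per group, a gene is called here when its levels differ by 2-fold or more. In all, 4 members were called higher in group E, against 1.59% of all genes, and 1 was called lower, against 1.31%. Ndufs5, an accessory subunit on the intermembrane space side of complex I, was at 4.87 FPKM in group D against 12.9 FPKM in group E (log2 change 1.41). Cox20, a chaperone that guides a mitochondrially encoded subunit into complex IV, was at 34.1 FPKM and 79.3 FPKM (1.22). Ndufa12, an accessory subunit of the arm of complex I that takes up electrons, was at 20.1 FPKM and 44.6 FPKM (1.15). Cox6a1, the widely expressed isoform of subunit 6a of complex IV, was at 241 FPKM and 485 FPKM (1.01). The member called lower was Cox8b, the heart, muscle and brown fat isoform of subunit 8, at 2.18 FPKM in group D against 0.369 FPKM in group E (-2.56), which passed the filter only through its level in group D. Just inside the threshold stood Cox6a1 with 2.01-fold and Ndufa12 with 2.22-fold. Just outside stood Cox5a, a widely expressed subunit of complex IV, at 288 FPKM and 145 FPKM (1.98-fold lower in group E), and Ndufa13 (GRIM-19), a subunit of complex I also known for a role in cell death, at 31.0 FPKM and 16.4 FPKM (1.89-fold lower). Scaled to the upper quartile or relative to Actb, Cox6a1 left the calls and Cox5a entered them, so that 3 members were called higher and 2 lower.

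Of these genes, 2 carry in their promoter the letters that known activators of respiratory genes bind. Their windows are shown with those of 2 further members that lay past 1.5-fold. Every window shown holds such letters, so these windows do not stand for the changed members as a set. The windows of Ndufs5, Ndufa12, Cox8b, Cox5a and Ndufa13 hold none of the motifs searched. Each window runs from 250 bases before the start of the gene to 50 bases after it, as RefSeq gives it on GRCm38.p6, written 5′ to 3′ on the strand of the gene. Motifs were searched on both strands: GCGCATGC for NRF1 (nuclear respiratory factor 1), CCGGAAG for ETS factors such as GABP, and AAGATGGC for YY1. Capitals mark the matches. Cox6a1 lies at chr5:115348909-115349208 on the minus strand, Cox20 at chr1:178318903-178319202 on the plus strand, Uqcr11 at chr10:80406772-80407071 on the minus strand and Ndufc1 at chr3:51408906-51409205 on the minus strand.
Cox6a1: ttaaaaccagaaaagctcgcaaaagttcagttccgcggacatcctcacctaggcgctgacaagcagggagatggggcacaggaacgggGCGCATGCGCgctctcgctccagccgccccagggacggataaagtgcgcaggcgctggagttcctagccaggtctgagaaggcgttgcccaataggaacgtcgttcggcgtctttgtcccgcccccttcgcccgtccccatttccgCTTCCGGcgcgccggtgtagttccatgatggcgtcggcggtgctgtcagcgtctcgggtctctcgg
Cox20: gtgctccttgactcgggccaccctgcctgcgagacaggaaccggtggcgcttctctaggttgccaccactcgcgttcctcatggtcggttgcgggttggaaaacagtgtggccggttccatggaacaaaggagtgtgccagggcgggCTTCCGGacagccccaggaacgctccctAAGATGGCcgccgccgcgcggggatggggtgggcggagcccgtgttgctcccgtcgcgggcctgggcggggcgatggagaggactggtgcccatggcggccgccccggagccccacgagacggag
Uqcr11: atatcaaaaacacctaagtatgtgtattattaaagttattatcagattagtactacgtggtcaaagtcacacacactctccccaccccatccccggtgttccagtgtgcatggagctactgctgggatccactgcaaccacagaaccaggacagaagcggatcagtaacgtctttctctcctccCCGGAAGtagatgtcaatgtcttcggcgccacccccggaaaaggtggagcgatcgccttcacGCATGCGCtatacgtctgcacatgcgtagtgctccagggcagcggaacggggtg
Ndufc1: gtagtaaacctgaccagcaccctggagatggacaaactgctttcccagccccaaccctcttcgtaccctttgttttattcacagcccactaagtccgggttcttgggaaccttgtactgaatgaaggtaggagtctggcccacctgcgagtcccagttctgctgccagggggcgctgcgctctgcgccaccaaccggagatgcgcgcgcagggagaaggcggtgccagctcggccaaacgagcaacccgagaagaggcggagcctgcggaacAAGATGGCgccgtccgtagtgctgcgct
In Cox6a1 the first capitals hold 2 overlapping NRF1 matches, 1 on each strand, and the next an ETS match whose first letter lies 16 bases before the start. Cox20 has an ETS match followed by a YY1 match, Uqcr11 an ETS match and then an NRF1 match, and Ndufc1 a YY1 match that begins 22 bases after the start.

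A window was given for 80 of the 101 members, and 36 of them (45%) held at least 1 of the 3 motifs, compared with 13.75% of the windows of all 27025 genes. NRF1 letters were in 15% of the members and in 2.8% of all windows, ETS letters in 26.25% and 9.12%, and YY1 letters in 12.5% and 2.88%. Among the 9305 other genes that passed the filter and had a window, which are expressed in ileum as the members are, the shares were 5.36%, 17.8% and 4.64%. The changes of members with and without a motif were set side by side, and no difference was tested. The 12 with NRF1 letters had a median log2 change of 0.15, against 0.00 for the 67 without. For ETS letters the medians were 0.00 and 0.02, and for YY1 letters 0.03 and 0.00. Both Cox20 (1.22) and Ndufc1 (-0.90) hold YY1 letters. A match describes these letters only and is not a binding site shown by these data. The factors themselves lay within 1.5-fold: Nrf1 was at 12.8 FPKM in group D against 14.9 FPKM in group E, Gabpa at 14.1 FPKM and 16.4 FPKM, and Yy1 at 25.5 FPKM and 27.6 FPKM.

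At a second threshold of 1.5-fold, 10 members were called higher in group E and 8 lower, against 5.03% and 5.19% of all genes. Together these are 18.75% of the members that passed, compared with 10.2% of all genes, and 78 members lay within 1.5-fold. The difference between the shares was not tested. By complex, these were on both sides where there were several: complex I had 5 higher and 4 lower, complex IV 3 higher and 4 lower, and complexes III and V had 1 higher each. Complex II had none.

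The core subunits, which carry electrons or form the catalytic head and rotor of the ATP synthase, differed less than accessory subunits and assembly factors in the median size of their change, which was 0.18 on the log2 scale for core subunits, 0.22 for accessory subunits and 0.25 for assembly factors. Most core subunits have a coding sequence over 432 bases. Members over that length had a median size of change of 0.18, and those at or under it 0.39. Role and length were not separated here. All 18 core subunits lay within 1.5-fold, with log2 changes from -0.56 to 0.49 and a median of 0.02. Complex IV has none among them, because its core is encoded by mitochondrial DNA. The delta and epsilon subunits of the ATP synthase head were counted as accessory. Among the 56 accessory subunits, which surround the core and stabilise it, 8 were past 1.5-fold higher and 5 lower, with a median of 0.12. The 16 assembly factors had a median of -0.14, with 10 of them lower in group E. Levels also differed by role: the median level in group D was 111 FPKM for core subunits, 109.5 FPKM for accessory subunits and 8.93 FPKM for assembly factors.

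Complex I has 7 nuclear core subunits among the members. Ndufv1, which binds NADH and the flavin that first takes its electrons, was at 80.2 FPKM in group D against 79.6 FPKM in group E. Ndufv2, its iron-sulfur partner, was at 69.8 FPKM and 78.9 FPKM. Ndufs1, the largest subunit, which carries iron-sulfur clusters of the same arm, was at 66.2 FPKM in both groups. Of these 3 core subunits of the electron-input arm, Ndufv1 and Ndufs1 were almost equal and Ndufv2 was slightly higher in group E (0.18). Ndufa12, an accessory subunit of the same arm, was past 2-fold higher. Ndufs8, with the clusters of the connecting arm, was at 62.9 FPKM and 73.3 FPKM. Ndufs3 and Ndufs7 lay furthest apart among the core, on opposite sides. Ndufs3, of the connecting arm, was at 75.1 FPKM in group D against 56.6 FPKM in group E (-0.41). Ndufs7, which holds the last cluster before ubiquinone, was at 54.9 FPKM and 77.1 FPKM (0.49).

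The position listed for Ndufs7 is shared by many genes. Ndufs7 and Atp5d, the delta subunit of the ATP synthase head, are both listed at chromosome 10, 79697305 to 80369637, as are 46 rows in all. Of these, 33 passed the filter, with a median log2 change of 0.12, and 20 were higher in group E and 13 lower. Atp5d was at 227 FPKM in group D against 339 FPKM in group E (0.58). How the authors' software divided reads inside such a merged locus is not stated in the labels or the methods. The same holds for 12 further members, such as Ndufa13, whose position is shared by 1 or 2 other rows.

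The accessory subunits of complex I carried its largest changes in both directions. The most abundant were Ndufb9 at 204 FPKM in group D against 194 FPKM in group E, and Ndufs6, which binds zinc, at 165 FPKM and 206 FPKM, both within 1.5-fold. Ndufa3, a small subunit with a single span of the membrane, was at 173 FPKM and 101 FPKM (-0.77). Ndufc1, another small membrane subunit, was at 71.6 FPKM and 38.4 FPKM (-0.90), close to the difference in Ndufa13 (-0.91). Ndufb6, also of the membrane arm, was at 86.7 FPKM and 55.8 FPKM (-0.64). Against these, Ndufb3 of the membrane arm was at 55.5 FPKM and 90.4 FPKM (0.71), and Ndufa5 of the matrix arm at 40.0 FPKM and 63.5 FPKM (0.67). Members of the membrane arm thus lay past 1.5-fold on both sides. The other 19 accessory subunits all lay within 1.5-fold, and Ndufb4, at 52.2 FPKM in both groups, and Ndufb8, at 124 FPKM and 126 FPKM, were among the closest to equal.

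Ndufaf2, an assembly factor of complex I that is related in sequence to Ndufa12 and holds its place before Ndufa12 joins, was at 2.53 FPKM in group D against 4.20 FPKM in group E (0.73). Both genes of this exchange were thus listed higher in group E, with Ndufaf2 at a low level. The other 6 assembly factors of complex I in the list, Ndufaf1 and Ndufaf3 to Ndufaf7, had log2 changes from -0.30 to 0.27. Ndufaf1, which acts early on the membrane arm, was at 11.9 FPKM in both groups.

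Complex II, which is also succinate dehydrogenase of the tricarboxylic acid cycle, was the most even. Sdha, the flavoprotein that oxidises succinate, was at 164 FPKM in group D against 188 FPKM in group E (0.20). Sdhb, the iron-sulfur protein, was at 143 FPKM and 141 FPKM. The membrane anchors Sdhc and Sdhd, which bind ubiquinone, were at 117 against 131 FPKM and at 153 against 151 FPKM. All 4 subunits lay within 117 to 188 FPKM in both groups, although their coding sequences run from 477 to 1992 bases.

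In complex III the subunits that were higher in group E were accessory ones. Uqcr11, the smallest subunit, was at 146 FPKM in group D against 223 FPKM in group E (0.62), the member of this complex past 1.5-fold. Uqcrb, a ubiquinone-binding protein of the complex, was at 280 FPKM and 380 FPKM (0.44). Uqcrc1, a large protein on the matrix side that holds no redox centre, was at 167 FPKM and 228 FPKM (0.45). Its partner Uqcrc2 was at 186 FPKM and 215 FPKM (0.21). Uqcr10 and Uqcrq, both small, were at 305 against 328 FPKM and at 248 against 270 FPKM. On the other side, Uqcrfs1, the Rieske iron-sulfur protein and the redox subunit among these genes, was at 138 FPKM and 112 FPKM (-0.30). Uqcrh, the hinge protein that contacts cytochrome c1, was at 252 FPKM and 227 FPKM (-0.15). Cyc1, cytochrome c1 itself, is not a member by name and was at 126 FPKM in both groups. The nuclear redox proteins of complex III were therefore lower in group E or equal, while 6 accessory subunits were higher.

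Complex IV held the most abundant transcripts beside those of the ATP synthase. Cox7c was at 748 FPKM in group D against 561 FPKM in group E (-0.42), Cox4i1, the regulatory subunit 4 of most tissues, at 646 FPKM and 719 FPKM (0.16), and Cox6c at 544 FPKM and 748 FPKM (0.46). Cox7c and Cox6c, both small single-span subunits, exchanged order between the groups. Cox6b1, which faces the intermembrane space and joins the monomers of the enzyme, was at 525 FPKM and 662 FPKM (0.33). Cox5a and Cox5b, the peripheral subunits on the matrix side, lay past 1.5-fold in opposite directions, Cox5b at 126 FPKM and 198 FPKM (0.65). In the assembled enzyme these subunits occur in fixed numbers. Their transcripts spanned from -0.98 for Cox5a to 1.01 for Cox6a1.

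The 9 assembly factors of complex IV with a Cox name lay lower in group E, except Cox20, Cox10 and Cox19. Cox17, which carries copper to the complex, was at 65.1 FPKM in group D against 38.7 FPKM in group E (-0.75). Cox11, which passes copper on to a core subunit, was at 8.36 FPKM and 5.33 FPKM (-0.65). Cox19, a partner of Cox11, was at 29.0 FPKM and 30.7 FPKM, so not all copper factors lay lower. Cox10 and Cox15, the enzymes that make heme a, were at 7.42 against 7.61 FPKM and at 15.5 against 14.3 FPKM. Cox14, Cox16 and Cox18, which help to insert and mature core subunits, had log2 changes of -0.16, -0.34 and -0.43. Cox7a2l, a factor that joins complexes III and IV into supercomplexes, was at 120 FPKM and 110 FPKM.

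Several subunits of complex IV have another isoform that is known from other tissues. Cox7a1, the heart, muscle and brown fat isoform of subunit 7a, was abundant in both groups, at 126 FPKM in group D against 96.6 FPKM in group E (-0.39). It made up 36.6% of the subunit 7a transcripts in group D and 33.3% in group E, the remainder being Cox7a2 at 218 FPKM and 194 FPKM. No other restricted isoform reached 1% of its subunit. Cox8b was 0.542% of subunit 8 in group D and 0.0802% in group E, beside Cox8a at 399 FPKM and 460 FPKM. Cox6b2, the testis isoform of subunit 6b, was at 2.87 FPKM and 4.27 FPKM. Cox4i2, the lung and smooth muscle isoform of subunit 4, was at 0.159 FPKM and 0.954 FPKM, and Cox6a2, the heart and muscle isoform of subunit 6a, at 0.275 FPKM and 0.611 FPKM. Ndufa4l2, a paralog of Ndufa4 that is induced in low oxygen, was at 0.217 FPKM in group D against 1.23 FPKM in group E, beside Ndufa4 at 306 FPKM and 295 FPKM. These 3 genes were higher in group E but did not pass the filter. The testis isoforms Cox7b2 and Cox8c were listed at 0 in both groups, while Cox7b, the common subunit 7b, was at 266 FPKM and 263 FPKM.

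**Figure D3:**
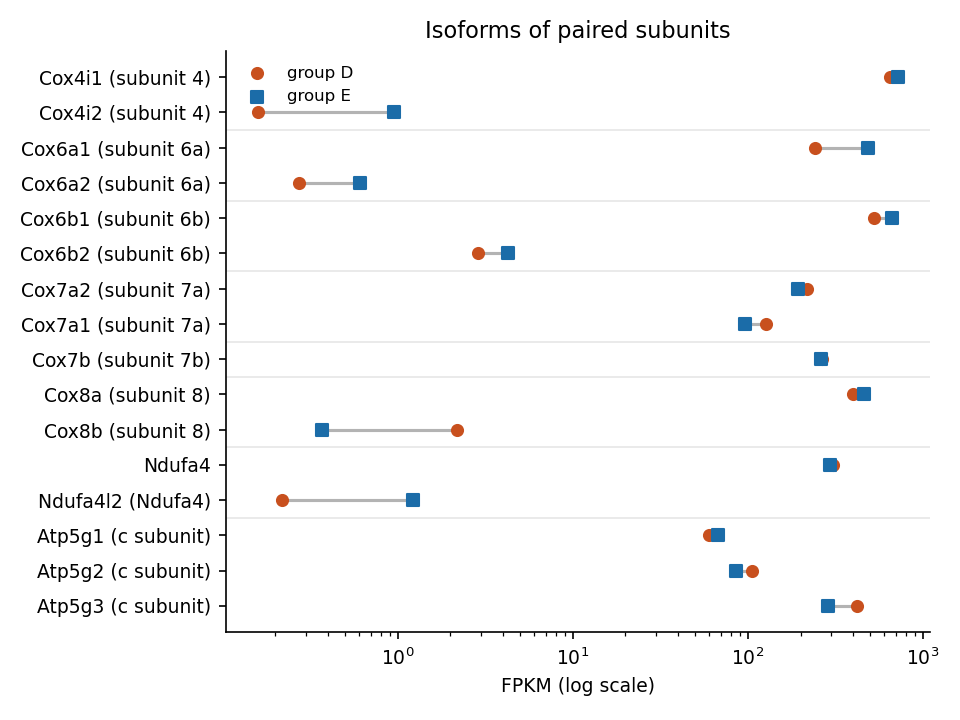
FPKM (log scale) in group D (circles) and group E (squares) of the subunits that have isoforms, with the common isoform above the restricted one and the 3 genes of the c subunit at the bottom; a line joins the values of a gene. Cox7a1 lies close to Cox7a2, whereas the other restricted isoforms lie at least 100 times under the common one. Isoforms at 0 in both groups are not drawn.

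Markers of the tissues these isoforms are known from were read beside them. Striated muscle markers summed to 5.86 FPKM in group D against 5.40 FPKM in group E over 9 genes, with Mb (myoglobin) and Myh4 at 0 in both groups and Acta1, skeletal actin, at 2.57 FPKM and 0.686 FPKM. Ckm, the muscle creatine kinase, was at 3.05 against 3.47 FPKM, and Tnni2, a fast muscle troponin, at 0 against 1.08 FPKM, so that the list had no common direction. Of the brown adipocyte list, Ucp1, the uncoupling protein that defines the cell, and Elovl3 were at 0 in both groups. All 4 testis markers were at 0. Ppargc1a and Kcnk3, which are not limited to brown fat, were at 8.37 against 7.60 FPKM and at 1.79 against 2.33 FPKM. Of the smooth muscle list, none of which was at 0, Actg2 was lower in group E (172 against 124 FPKM) and the other 7 genes were higher. The part of these cell types in the values of Cox7a1 and Cox8b was not tested. White adipocyte markers were mostly higher in group E: of the 7 that passed the filter, 5 were higher and 2 lower. Adipoq (adiponectin) was at 0.120 FPKM in group D against 63.4 FPKM in group E, and Car3 at 0.0310 FPKM and 356 FPKM. The 2 lower were Fabp4, a fatty acid carrier of fat cells, at 536 FPKM and 25.6 FPKM, and Lpl at 41.8 FPKM and 1.52 FPKM. Lep, Retn and Cfd were at 0 in group D and at 1.53, 53.4 and 274 FPKM in group E. Cfd is listed at the merged position that Ndufs7 and Atp5d share, so its value carries the same limit as theirs. Over that whole list of 10 genes the sums were 615 FPKM and 882 FPKM, and its part in the members' values was not tested.

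Complex V was led by the catalytic head. Atp5b, the catalytic beta subunit and the most abundant member in both groups, was at 823 FPKM in group D against 877 FPKM in group E (0.09). Atp5a1, the alpha subunit, was at 596 FPKM and 683 FPKM (0.20). Atp5c1, the gamma subunit that forms the rotor shaft, was at 225 FPKM and 223 FPKM. The other parts of the head and shaft differed more: Atp5d was higher in group E as given above, and Atp5e, the epsilon subunit, was lower, at 169 FPKM and 119 FPKM (-0.50). The delta and epsilon proteins bind each other at the foot of the shaft, and their transcripts lay on opposite sides of 0.

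The c subunit forms the rotor ring in the membrane and is made from 3 genes whose mature proteins are the same. Atp5g3 was the main gene, at 422 FPKM in group D against 287 FPKM in group E (-0.56), the largest change in either direction among the 18 genes counted as core. Atp5g2 was at 106 FPKM and 85.9 FPKM (-0.30), and Atp5g1, known as the gene of this trio that responds to metabolic demand, at 59.9 FPKM and 67.7 FPKM (0.18). Their sum was 588 FPKM in group D against 441 FPKM in group E (-0.42), and the share of Atp5g1 was 10.2% and 15.4%. The summed c subunit was therefore lower in group E, while alpha and beta of the head were slightly higher.

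The stator of complex V, which holds the head still, lay on the higher side. Atp5o, the oligomycin sensitivity protein, was at 396 FPKM in group D against 435 FPKM in group E (0.14), Atp5h, subunit d, at 319 FPKM and 455 FPKM (0.51), and Atp5f1, subunit b, at 159 FPKM and 180 FPKM (0.18). Atp5j, coupling factor 6, was at 80.1 FPKM and 98.9 FPKM (0.30), so that all 4 were higher. Atp5o, Atp5h and Atp5f1 have near-identical copies, described below, which leaves their values uncertain, whereas Atp5j has none. Of the small membrane subunits that shape the dimer, Atp5k (e) was at 40.8 FPKM and 73.3 FPKM (0.85), the member of complex V past 1.5-fold, and its partner Atp5l (g) at 311 FPKM and 276 FPKM (-0.17). Atp5j2 (f) was at 60.7 FPKM and 80.7 FPKM (0.41). Atpif1, the inhibitor that stops the enzyme from running backwards, is not a member by name and was at 181 FPKM in group D against 485 FPKM in group E (1.42). Its log2 change lay above that of every subunit of complex V.

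The members past 1.5-fold were mostly genes with a short coding sequence, a property that the rule did not use. Coding length ran from 156 to 2181 bases over the members with a median of 432 bases, compared with 1392 bases over other genes that passed the filter. Of the 47 members at or under 432 bases, 14 (29.8%) were past 1.5-fold, 8 higher and 6 lower. Of the 49 longer members, 4 (8.16%) were past it. Among other genes the share was also higher at short lengths, with 173 of 753 genes at or under 432 bases (23.0%) and 959 of 11416 longer genes (8.4%). The short other genes were 118 higher and 55 lower. Among other genes with a mean of at least 20 FPKM, closer to the members' level, the shares were 20% and 4.74%, with 59 of the short ones higher and 12 lower. The share of short members lay above that of short genes in both of these sets. The share of longer members (8.16%) lay above the 4.74% but just under the 8.4% of all longer other genes. The cut was chosen after the data were seen, and no share was tested.

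**Figure D4:**
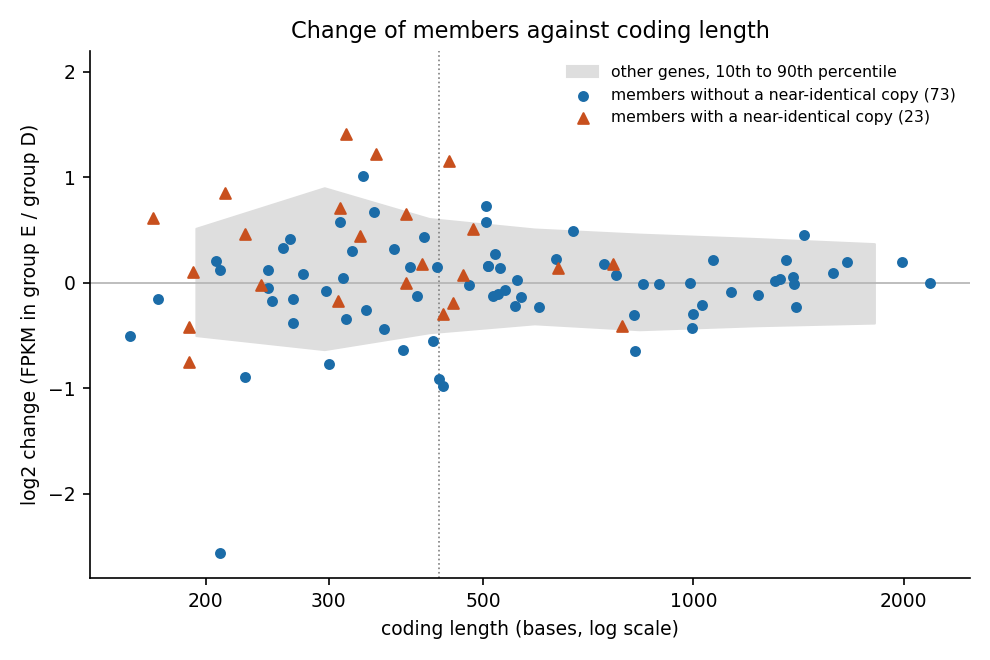
log2 change (FPKM in group E over group D) of the 96 members that passed the filter against coding length (bases, log scale), 1 point per gene; triangles have a near-identical copy in the reference, circles do not. The grey band spans the 10th to 90th percentile of other genes by length and the dotted line marks 432 bases. Both the band and the members are wider at short lengths, and 4 of the 5 highest points are triangles.

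Some of these genes also have near-identical copies elsewhere in the genome, between which reads can be split. Among the members, 23 have a sequence in the reference transcripts that matches at least 80% of their coding sequence at 95% identity or more. Of these 23, 7 were past 1.5-fold higher and 1 lower, with a median log2 change of 0.18. Length and copies overlapped: 7 of the 15 with a copy at or under 432 bases were past 1.5-fold (46.7%), and 1 of the 8 longer ones (12.5%). Of the 73 without a copy, 3 were past it higher and 7 lower, with a median of 0.00. Without a copy, the shares were 7 of 32 (21.9%) at or under 432 bases and 3 of 41 (7.32%) over it. Copies of other genes were not searched, so no background share is given. Ndufs5, Cox20, Ndufa12, Atp5k, Ndufb3, Cox5b and Uqcr11 are the higher members with a copy, and Cox17 the lower one. Cox6a1, Ndufa5 and Ndufaf2 are the higher members without one. Within 1.5-fold, the members with a copy are Ndufab1, Ndufb4, Ndufb11, Ndufs3, Uqcr10, Uqcrb, Cox6c, Cox7b and Cox7c. In complex V they are Atp5f1, Atp5g1, Atp5g2, Atp5h, Atp5l and Atp5o. Only Cox6a1 remained past 2-fold higher when the 23 were left out.

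The copy of Ndufs5 is itself in the table. BC002163 was listed at 88.3 FPKM in group D against 130 FPKM in group E, at levels far above those of Ndufs5. Summed, the pair was at 93.2 FPKM and 143 FPKM, a log2 change of 0.62 in place of 1.41, which would place it past 1.5-fold and not past 2-fold. The levels of Ndufs5 alone are therefore uncertain. The copies of Uqcr10 and Cox7c that have rows were low, at 0.483 against 0.539 FPKM and at 2.83 against 1.39 FPKM. For the other members with copies, the copies were not analysed here, and their values are uncertain in the same way.

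Other mitochondrial genes were read beside the members by the same rule. Genes of the tricarboxylic acid cycle and pyruvate dehydrogenase lay more to one side: 17 of 18 were higher in group E, none past 1.5-fold, with a median log2 change of 0.26. Mdh2 (malate dehydrogenase) was at 403 FPKM in group D against 485 FPKM in group E, Cs (citrate synthase) at 293 FPKM and 299 FPKM. Of 76 proteins of the mitochondrial ribosome, 62 were higher, 3 of them past 1.5-fold and none lower past it, with a median of 0.25. Proteins of the cytosolic ribosome had a median of 0.17, with 47 of 75 higher, so values on the higher side were not limited to mitochondrial lists. For the 20 import genes the median was 0.19, and for the 13 genes of coenzyme Q synthesis it was 0.00. A further list joined carriers of the inner membrane, porins of the outer membrane (Vdac genes) and mitochondrial creatine kinases. The 7 of these that passed had a median of -0.04, with 4 lower in group E and 3 higher. Slc25a3, Slc25a4 and Slc25a5, the inner membrane carriers among them, were all lower (-0.37, -0.38 and -0.42). Cycs (cytochrome c, 1.03), Cyc1 (cytochrome c1) and Hccs (-0.11) formed a list of 3 genes, with a median of 0.00. The members (0.03) thus lay between these lists, and the differences between the lists were not tested.

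**Figure D5:**
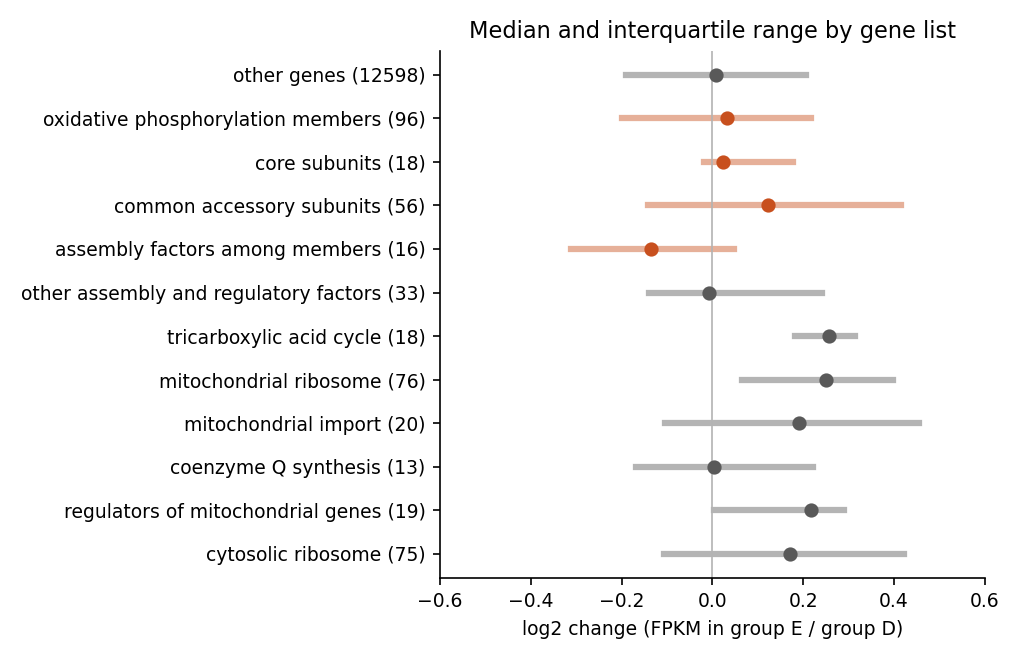
Median (point) and interquartile range (bar) of the log2 change (FPKM in group E over group D) for oxidative phosphorylation members and their classes (orange) and for related gene lists (grey), with the number of genes that passed the filter. The tricarboxylic acid cycle (0.26) and the mitochondrial ribosome (0.25) have bars wholly above 0, while the bar of all members spans 0.

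Further factors that build or regulate the chain but do not carry a member's name had no common direction. Of 33 that passed, 16 were higher in group E and 17 lower, with a median log2 change of -0.01. Some factors of complex IV were higher, such as Coa3 (0.30), Pet100 (0.35) and Taco1 (0.41). Past 1.5-fold lower were Coa6, a copper factor of complex IV (10.5 FPKM and 5.74 FPKM), and Atpaf1, which assembles the ATP synthase head (5.70 FPKM and 3.61 FPKM). Pet117, an assembly factor of complex IV, was listed at 0.000234 FPKM in group D against 3.91 FPKM in group E. A value so near 0 can be a failed estimate, as Rpl26, a ribosomal protein gene that every cell uses, was also listed at 6.37 FPKM in group D against 0.000458 FPKM in group E. Cycs, the cytochrome c that carries electrons from complex III to complex IV, was at 26.1 FPKM and 53.1 FPKM (1.03). Cycs and Atpif1 were thus past 2-fold higher beside subunits that mostly were not.

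A list of regulators of mitochondrial genes also held Polg and Peo1, which copy mitochondrial DNA. Of its genes, 14 of 19 were higher in group E, with a median log2 change of 0.22. Ppargc1a, the coactivator known to raise respiratory genes, was at 8.37 FPKM in group D against 7.60 FPKM in group E, and Esrra, a nuclear receptor that works with it, at 51.5 FPKM and 53.1 FPKM. Tfam, which packs and transcribes mitochondrial DNA, was at 11.3 FPKM and 11.0 FPKM. These regulators thus lay within 1.5-fold. Pparg was the exception, at 4.04 FPKM and 8.40 FPKM (1.06), and it is also a gene of the white adipocyte list given above.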

How the data were processed

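Ileum RNA of group D and group E was sequenced with a stranded kit. The submitters' processing notes name Bowtie2 2.2.3, TopHat2 2.0.12 and DESeq 1.18.0. The authors deposited a gene table with a single FPKM for each group. Neither the genome build nor the way the 2 libraries per group were scaled and joined is given in the sources used here. Its columns of fold changes, P-values and q-values, and a further table of pathway enrichment, hold the authors' own comparisons and were not used. FPKM without counts give no depth and no counting error. The listed positions of all 101 members overlap the same gene in GRCm38 (GENCODE M21).

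Changes are log2 ratios of group E to group D for genes above 0 in both groups and averaging 1 FPKM or more, with no test, since there is 1 value per group. Called means past 2-fold, or 1.5-fold as a second rule. Members were named when past 2-fold with at least 1 FPKM in a group, listed at 0 in 1 group, among the 3 most abundant or the 2 largest changes per direction of their complex, core, or of an isoform set; further members were named after their values were seen. The values of 1 member that the rule names are not reported here. Members and gene lists were chosen with earlier results of these data known. Alternatives were other filters, pseudocounts, scalings, member sets and folds. Copies were found with blastn 2.17.0 over at least 100 bases. The computation was tested on simulated data. Tools were matplotlib 3.10.9, scipy 1.17.1, pandas 2.3.3 and numpy 2.4.6 under Python 3.11.15.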

Additional observations from a re-analysis of the deposited data

How the results depend on the processing

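The median log2 change of all members lay between 0.00 and 0.09 under 15 alternatives (filters, pseudocounts, scalings, member sets, the mean), that of complex I between -0.03 and 0.03, complex II between 0.04 and 0.08, complex III between 0.12 and 0.19 and complex V between 0.09 and 0.18. That of complex IV ranged from -0.12 to 0.07, and it was 0.067 with structural subunits only. The 4 members called higher at 2-fold became 7 without a filter on low values, 1 without members that have a near-identical copy (chosen after seeing the data), 10 at 1.5-fold and 20 at the lowest fold tried. The 1 called lower became 0 with a mean of at least 5 FPKM, with at least 1 FPKM in both groups, without restricted isoforms or with a transcript of at least 500 bases, 2 under upper-quartile scaling or relative to Actb, 8 at 1.5-fold and 16 at the lowest fold tried. Upper-quartile scaling moved the median gene by 0.03, and 109 other values for the groups of members moved by less than the tolerance (0.1 on the log2 scale, or 1.5 times for a count). No paired analysis was possible because the deposited table holds 1 value per gene and group, and for the same reason no replicate could be left out. The difference between the groups cannot be told apart from the spread between mice. Values of short genes and of genes with copies depend on how reads were assigned, which was not tested.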
